A study of Homo sapiens with 22 samples.

Results

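The cells described here are 628 untreated WM983B melanoma cells, the cells that the authors' deposited cell labels put in cluster 1 of 4. They are 43.3% of the 1449 cells of 1 droplet scRNA-seq library, and cluster 1 was set against cluster 0 (640 cells), cluster 2 (91 cells) and cluster 3 (90 cells) of the same library. The 3 single-cell tables of the series hold 54001 cells in all. The study asks how melanoma cells move between a drug-susceptible state and a primed state, in which cells are more likely to survive targeted therapy before any drug is given. WM983B is an established human melanoma cell line, which the cell line label shortens to WM983, and the study used a clone of it that had passed through repeated single-cell bottlenecks. The cells received no treatment, were sorted into a culture well, divided a few times and were captured with 10x 3′ V3.1 chemistry. The labels class all 628 cells of cluster 1 and all 90 cells of cluster 3 as not primed, and all cells of clusters 0 and 2 as primed. All 4 clusters therefore share line, clone, culture and library.

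Melanocytes make melanin in melanosomes, organelles built on a scaffold of PMEL protein, and the enzymes TYR, TYRP1 and DCT carry out melanin synthesis. The transcription factor MITF, which acts together with SOX10 in this lineage, drives many of these genes through short E-box motifs in their promoters. Melanoma cells can lose this pigment program and take up a dedifferentiated one, with the receptors AXL and NGFR, the ecto-nucleotidase NT5E (CD73), matrix genes and secreted cytokines.

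Cluster 1 was the pigment-gene end of the library. MLANA, PMEL, DCT, ABCB5, TRIM63, SPP1 and SLC45A2 were 3.94 to 11.9 times higher than in the other cells together. The chemokines CCL5, CCL2 and CXCL8, the cytokine IL11 and the activin subunit INHBA were 7.08 to 23.1 times lower. Values are unique molecular identifier (UMI) counts summed over the cells of a cluster and scaled to that cluster's total (CPM), with exact 95% Poisson intervals. There was 1 library and no replicate, and the clusters were called from these same counts, so no difference between clusters was tested. Intervals cover counting error only.

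Because MITF recognises the M-box, an E-box with a flanking T (TCATGTG, searched on both strands), the promoters of pigment genes were read beside their levels. The lines that follow give the 250 bases before a listed start of 3 genes with this motif and of MLANA without it, from RefSeq on GRCh38.p14, 5′ to 3′ on the gene's strand, with the motif in capitals. DCT has more than 1 listed start: the window shown lies before a start inside the gene, and the window before its outermost start, chr13:94549407-94549656, holds no M-box.

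DCT, chr13:94479683-94479932, minus strand: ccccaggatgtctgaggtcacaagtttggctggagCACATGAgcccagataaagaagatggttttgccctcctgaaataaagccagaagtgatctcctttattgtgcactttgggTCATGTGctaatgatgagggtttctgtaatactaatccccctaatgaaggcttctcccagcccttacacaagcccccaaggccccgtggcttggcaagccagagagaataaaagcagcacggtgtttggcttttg

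SLC24A5, chr15:48120740-48120989, plus strand: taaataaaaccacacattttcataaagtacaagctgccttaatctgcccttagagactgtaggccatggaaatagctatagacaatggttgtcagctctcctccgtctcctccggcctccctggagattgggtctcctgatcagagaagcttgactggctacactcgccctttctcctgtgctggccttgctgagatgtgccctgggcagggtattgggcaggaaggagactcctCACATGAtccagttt

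TYR, chr11:89177625-89177874, plus strand: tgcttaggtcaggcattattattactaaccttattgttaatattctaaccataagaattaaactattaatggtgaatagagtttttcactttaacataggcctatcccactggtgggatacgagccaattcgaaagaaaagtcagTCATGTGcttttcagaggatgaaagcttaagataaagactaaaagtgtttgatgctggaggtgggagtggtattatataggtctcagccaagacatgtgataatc

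MLANA, chr9:5890639-5890888, plus strand: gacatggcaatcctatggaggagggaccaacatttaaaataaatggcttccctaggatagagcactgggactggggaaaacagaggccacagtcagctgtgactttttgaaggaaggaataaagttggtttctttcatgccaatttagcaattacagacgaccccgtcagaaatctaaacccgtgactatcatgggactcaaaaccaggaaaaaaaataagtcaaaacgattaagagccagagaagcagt

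These 4 windows overlap no exon of the GENCODE annotation. Over windows that also hold the 50 bases after the start, the M-box stood in 10 (8.77%) of the 114 genes higher in cluster 1 that had a promoter in the table, in 5 (2.53%) of 198 genes lower in it and in 138 (2.48%) of 5571 genes tested. Of all 35116 promoter windows 2.92% hold it. A gene was counted where the window of any of its listed starts held the motif. In the pigment list 6 of 16 genes with a promoter had an M-box, TYR, TYRP1, DCT, SLC24A5, GPR143 and CD63, and among the 15 genes with the highest ratios it stood in 4 of 12, TRIM63, DCT, TSPAN10 and SLC24A5. The plain palindromic E-box CACGTG, which does not overlap the M-box letters, stood in 17.5% of the higher, 4.04% of the lower and 13.8% of all genes tested, against 7.26% of all windows, so its share among higher genes was near that of the genes tested. Genes with and without the motif occurred at both ends of the pigment list, since TYR, with an M-box, was 1.25 times higher in cluster 1 and MLANA, with none in this window, 11.9 times. PMEL, ABCB5 and SLC45A2 were matched to no window.

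The totals were 46422873 UMIs in cluster 1, 42379321 in cluster 0, 6451393 in cluster 2 and 7484811 in cluster 3. A cell of cluster 1 had a median of 70605.5 UMIs and 8571 genes, against 63102.5, 68760 and 84240 UMIs in clusters 0, 2 and 3. The median share of mitochondrial counts was 8.26% in cluster 1, and 8.11%, 6.5% and 6.71% in the other 3 clusters. Every cell in the table had between 7001 and 9999 genes, since the authors had removed cells with few or many genes, the latter as likely doublets, and no doublet caller was run here. Of the 1449 cell barcodes, 7 also occur in the untreated WM989 table (1 of them in cluster 1) and 11 in the treated WM989 table (7 in cluster 1).

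The 7 markers above had been chosen with these data known, so their levels describe cluster 1 and test nothing. MLANA (chr9:5890889-5910606), a melanosome protein of melanocytes, had 65.2 CPM in cluster 1 (62.9 to 67.6), 2.27 CPM in cluster 0, 3.26 CPM in cluster 2 and 25.8 CPM in cluster 3. PMEL (chr12:55954105-55966709), the scaffold protein, had 969 CPM in cluster 1, 185 CPM in cluster 0, 376 CPM in cluster 2 and 439 CPM in cluster 3. DCT (chr13:94436811-94549406), which rearranges a melanin precursor, had 466 CPM in cluster 1, 97.1 CPM in cluster 0, 21.5 CPM in cluster 2 and 158 CPM in cluster 3. Cluster 1 was highest for all 3 genes, and the order of the others changed, with cluster 0 lowest for PMEL and cluster 2 lowest for DCT.

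ABCB5, an ABC transporter known in melanoma, had 57.2, 5.99, 7.13 and 21.4 CPM in clusters 1, 0, 2 and 3. SLC45A2, a melanosome transporter, had 38.6, 8.83, 9.77 and 15.4 CPM in the same order. TRIM63, a ubiquitin ligase best known from muscle and a known MITF target, had 35.3, 5.69, 5.74 and 10.8 CPM. SPP1 (osteopontin), a secreted glycoprotein, had 47.0, 7.22, 20.6 and 21.0 CPM. All 7 markers were higher in cluster 1 than in each other cluster, 6 of them were among the 10 genes with the highest ratios, and none of those 10 was on a marker list of another cell type. The counting intervals of clusters 0 and 2 overlapped for MLANA, ABCB5, TRIM63 and SLC45A2 and did not for PMEL, DCT and SPP1.

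Markers of other cell types were low in cluster 1 or present in all 4 clusters. In cluster 1, 5 of 6 fibroblast, 5 of 6 keratinocyte, 5 of 6 leukocyte and all 5 endothelial markers were under 5 CPM, with COL3A1, KRT5, KRT1, CD3E, NKG7, CDH5 and CLDN5 at 0, which by a limit of 3 counts allows up to 0.0646 CPM each. The summed level of the fibroblast list was 107 CPM in cluster 1 and 76.3 to 114 CPM in the others, nearly all of it LUM, and that of the keratinocyte list was 148 CPM and 146 to 190 CPM, nearly all of it KRT10. The leukocyte list summed to 11.5 CPM in cluster 1 and 16 to 30.8 CPM elsewhere, which was mostly LYZ. Schwann cells share the neural crest origin of melanocytes, and all 5 Schwann markers were detected, with a sum of 1063 CPM in cluster 1 and 1292 to 1471 CPM elsewhere. The part of these markers in the differences between clusters was not tested. Since the study's second experiment also included WM989 cells, the 11 genes with at least 20 CPM in each of the 11 WM989 clusters and at most 0.5 CPM in the other WM983B cells were read in cluster 1. None passed 0.366 CPM there, and their sum was 0.732 CPM, against 0.639 CPM in the other cells.

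Across genes, 6845 had at least 20 CPM in cluster 1 or in clusters 0, 2 and 3 pooled. Of these, 162 (2.37%) were at least 1.5-fold higher in cluster 1 and 281 (4.11%) at least 1.5-fold lower. These counts have no replicate behind them and are past a fold, not past a test. The direction was the same against each of the 3 other clusters for 155 of the 162 higher and 252 of the 281 lower genes. Past 1.5-fold against all 3 clusters at once were 58 higher and 77 lower genes. Against cluster 0 alone 2.66% of 6907 genes were higher and 4.29% lower, against cluster 2 alone 4.02% of 6943 were higher and 6.83% lower, and against cluster 3 alone 3.67% of 6722 were higher and 2.01% lower. Genes lower in cluster 1 thus outnumbered higher ones against clusters 0 and 2, and the reverse held against cluster 3.

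**Figure D1:**
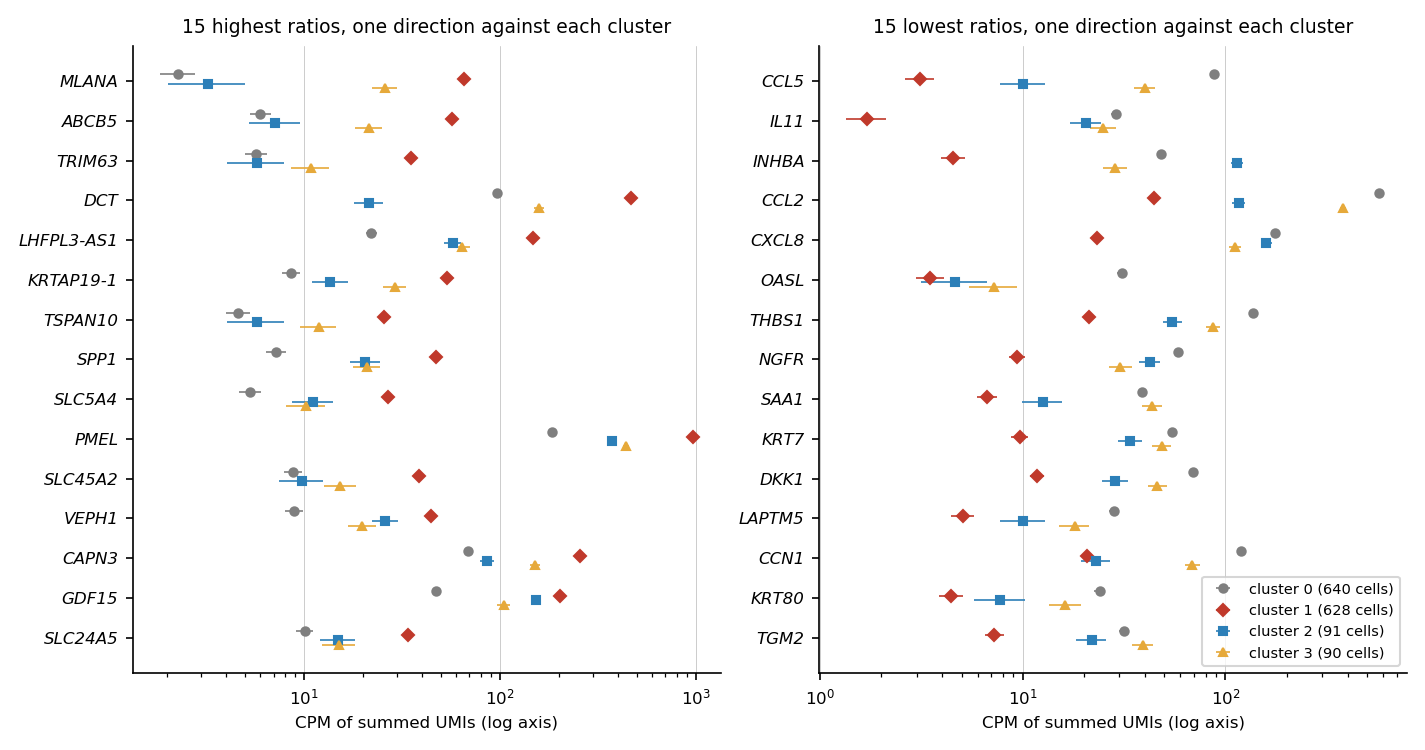
CPM of summed UMIs on a log axis in clusters 0 to 3 for the 15 genes with the highest (left) and the 15 with the lowest (right) ratio of cluster 1 to the other cells among genes of one direction against each other cluster, with exact 95% Poisson intervals (counting error only, 1 library). The choice of genes makes cluster 1 (red diamonds) the highest on the left and the lowest on the right. Cluster 3 mostly lies between clusters 0 and 1.

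The 15 highest and 15 lowest ratios were taken among genes that lay on the same side of cluster 1 in each other cluster. Beyond the markers, the 15 highest held further pigment genes and genes of other kinds. LHFPL3-AS1, a long non-coding RNA, had 148 CPM in cluster 1 and 31.7 CPM in the other cells, a ratio of 4.66 (4.43 to 4.91). TSPAN10, a tetraspanin, had 25.7 and 5.72 CPM, and SLC24A5, an ion exchanger of the melanosome, had 34.0 and 11.3 CPM. CAPN3, a calpain protease and MITF target, had 257 CPM in cluster 1 and 68.6 to 152 CPM in the single other clusters. GDF15, a stress-induced secreted factor, had 202 CPM in cluster 1, 47.1 CPM in cluster 0 and 153 CPM in cluster 2, so that it set cluster 1 apart from cluster 0 more than from cluster 2. KRTAP19-1, SLC5A4 and VEPH1 completed the group, with ratios of 4.52, 4.03 and 3.62.

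The lowest ratios were led by secreted inflammatory proteins. CCL5, a chemokine that attracts T cells, had 3.12 CPM in cluster 1 (145 UMIs), 87.4 CPM in cluster 0, 10.1 CPM in cluster 2 and 39.9 CPM in cluster 3. CCL2, which attracts monocytes, had 44.3, 572, 116 and 380 CPM in clusters 1, 0, 2 and 3. INHBA had 4.55, 48.3, 114 and 28.6 CPM in the same order. The chemokines were thus highest in cluster 0 and INHBA in cluster 2, and the rule placed cluster 1 lowest for all 3.

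IL11, a cytokine of the IL-6 family, was 16-fold lower in cluster 1 than in the other cells, CXCL8 7.08-fold and OASL, an interferon-induced gene, 7.06-fold. The IL11 value moved with the cells used, since in G1 cells alone it was 3.71-fold lower. Among genes of adhesion and matrix, THBS1 was 5.71-fold lower, CCN1 4.88-fold and TGM2, a crosslinking enzyme, 4.33-fold. Cluster 0 carried much of this for CCN1 and OASL above all. CCN1 had 20.8 CPM in cluster 1 and 22.9 CPM in cluster 2, a ratio of 0.908 (0.763 to 1.09), and OASL had 3.51 and 4.65 CPM. NGFR, the nerve growth factor receptor, was 5.60-fold lower, DKK1, a Wnt inhibitor, 5.19-fold and the acute phase gene SAA1 5.45-fold. The epithelial keratins KRT7 and KRT80 were 5.32-fold and 4.76-fold lower, and LAPTM5, a lysosomal membrane gene known from blood cells, 4.89-fold. The same-side rule left out genes with ratios as low as these, such as KRT81, which had 11.7 CPM in cluster 1 and 8.68 CPM in cluster 2 but 107 and 162 CPM in clusters 0 and 3, and IFIT2. For some of the genes kept, the log2 ratio shrank against cluster 2 alone. It went from −2.51 to −1.37 for THBS1, from −2.38 to −1.28 for DKK1 and from −2.45 to −0.91 for SAA1. For LAPTM5 it went from −2.29 to −0.99 and for KRT80 from −2.25 to −0.80. NGFR, KRT7 and TGM2 changed less, to −2.18, −1.80 and −1.59.

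Each other cluster was also set against cluster 1 alone. Cluster 2 stood apart by LIF, an IL-6 family cytokine, with 258 CPM against 21.8 CPM in cluster 1, by IGFBP3, with 192 against 16.1 CPM, and by STC1, a secreted glycoprotein, with 22.5 against 0.646 CPM. CABLES1 was the gene outside the markers that was among the 5 highest in cluster 1 against cluster 2, with 75.6 CPM against 13.5 CPM. Against cluster 3 the lowest ratios included the transcript AC092069.1, with 12.7 CPM in cluster 1 and 119 CPM in cluster 3, which had 12.9 and 11 CPM in clusters 0 and 2.

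Gene lists for the lineage, for the primed state and for signalling were read at a lower floor of 5 CPM, at which 10657 genes were compared, 2.82% of them at least 1.5-fold higher and 5.15% at least 1.5-fold lower in cluster 1. The median log2 ratio over these genes was −0.01. In the pigment and melanosome list 14 of 20 genes were at least 1.5-fold higher, none was as far lower, and the median log2 ratio was 1.11. TRPM1, a channel gene of melanocytes, had the second-highest ratio, 10.3 (7.55 to 14.5), at 8.08 CPM in cluster 1 and 0.781 CPM in the other cells. TYRP1 had 9.63 and 1.86 CPM. Several genes of the list hardly took part. TYR, the rate-limiting enzyme of melanin synthesis, had 70.4 CPM in cluster 1, 51.9 CPM in cluster 0 and 91.3 CPM in cluster 2, and the melanosome protein CD63 was also higher in cluster 2 (3015 CPM) than in cluster 1 (2723 CPM). MC1R, the receptor for melanocyte-stimulating hormone, had 7.69 CPM in cluster 1 and 6.80 CPM in the other cells, a ratio whose counting interval (0.976 to 1.31) included 1.

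Other MITF targets followed the same direction. Of 39 genes over the floor, 30 were at least 1.5-fold higher in cluster 1 and none 1.5-fold lower, and the median log2 ratio was 0.89. Cluster 1 had the highest level of all 4 clusters for 35 of the 39, a count given without the share over all genes. It was also highest for 16 of 20 sterol synthesis genes, with none of them past 1.5-fold, so this count is not read as a result. ASAH1, an acid ceramidase, had 398 CPM in cluster 1 and 158 to 208 CPM in the others, GPNMB, a melanosome glycoprotein, 650 CPM and 320 to 409 CPM, and APOE 137 CPM and 40.2 to 87.4 CPM. BIRC7, an inhibitor of apoptosis, was an exception with 149 CPM in cluster 1 and 164 CPM in cluster 2, as was BCL2A1, with 25.9 and 67.9 CPM. MET, which encodes the HGF receptor, was likewise lower in cluster 1 (19.0 CPM) than in cluster 2 (28.8 CPM).

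The lineage transcription factors did not move as a group, since 4 of 13 were at least 1.5-fold higher in cluster 1, 1 was lower, and the median log2 ratio was −0.10. MITF (chr3:69739464-69968332) had 420 CPM in cluster 1, 188 CPM in cluster 0, 258 CPM in cluster 2 and 220 CPM in cluster 3, a ratio of 2.10 (2.05 to 2.15) to the other cells. SOX10 (chr22:37972312-37984555) ran from 162 CPM in cluster 3 to 215 CPM in cluster 1, 1.15 times the level of the other cells. MITF thus set cluster 1 apart by more than SOX10 did. SNAI2, a neural crest factor, had 28.0 CPM in cluster 1 against 11.1 CPM, IRF4, a partner of MITF at the TYR gene, had 17.8 against 8.29 CPM, and TFAP2A 115 CPM against 52.2 to 73.2 CPM in the single clusters. FOXD3, a factor of early neural crest cells, went the other way with 13.2 CPM in cluster 1 and 28.1 CPM in the other cells.

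In the primed and dedifferentiation list 23 of 25 genes were at least 1.5-fold lower in cluster 1, with a median log2 ratio of −1.34. Cluster 1 had the lowest level for 24 of 25 genes of this list, again given without the share over all genes and not read as a result. The study had described part of this list in its own melanoma cells, and its direction is built into the labels of these clusters. AXL, a receptor tyrosine kinase, had 19.5 CPM in cluster 1, 80.8 CPM in cluster 0, 45.6 CPM in cluster 2 and 53.2 CPM in cluster 3. NT5E had 35.9, 84.2, 94.2 and 72.1 CPM in the same order. SERPINE2, a secreted protease inhibitor, had 745 CPM in cluster 1 and 978 to 3262 CPM elsewhere. Cluster 1 was lowest for all 3, yet far from 0 for each of them. VGF, a secreted neuropeptide precursor, was the 1 member above 1.5-fold in cluster 1, with 18.3 CPM against 11.8 CPM, and cluster 3 had 18.3 CPM as well. EGFR was under the floor in every cluster, with 2.22 CPM in cluster 1 and 3.0 CPM in the other cells, and so was not counted in the list.

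**Figure D2:**
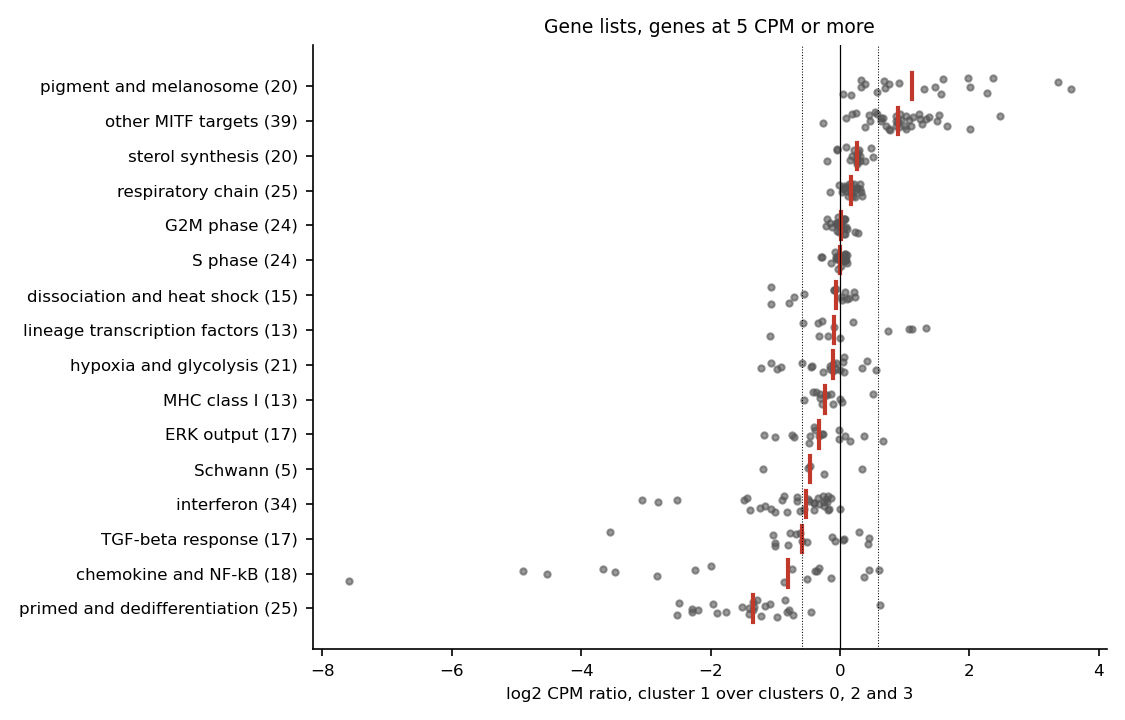
log2 CPM ratio of cluster 1 to clusters 0, 2 and 3 for each gene (grey points) of 16 lists, with the number of genes at 5 CPM or more in parentheses, the list median as a red bar and dotted lines at 1.5-fold. The medians run from 1.11 for the pigment list to −1.34 for the primed and dedifferentiation list, and both cell cycle lists lie near 0.

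Signalling and inflammatory lists were lower in cluster 1, though unevenly. In the chemokine and NF-kB list 10 of 18 genes were at least 1.5-fold lower and 1, SOD2, was higher, with a median log2 ratio of −0.80. CXCL10, an interferon-induced chemokine, was at 3 UMIs in the 628 cells and 702 UMIs in the other 821 cells, a ratio of 0.00518 (0.00107 to 0.0152), and CXCL11 was at 0.302 and 8.97 CPM. Nearly all CXCL10 came from cluster 0, with 698 UMIs, while cluster 2 had 0 and cluster 3 had 4, so its near absence was shared by clusters 1, 2 and 3. The NF-kB subunit and feedback genes in the same list moved little, for example NFKB1 with 62.4 CPM in cluster 1 and 80.3 CPM in cluster 0, NFKBIA with 67.5 and 93.2 CPM, and RELB with 31.2 and 35.1 CPM. TNFAIP3, a feedback inhibitor, was higher in cluster 1 (30.7 CPM) than in cluster 0 (21.7 CPM).

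Of 34 interferon-stimulated genes, 16 were at least 1.5-fold lower and none higher, with a median log2 ratio of −0.52 against all other cells. Most of this distance was to cluster 0: the median was −0.62 against cluster 0, −0.24 against cluster 2 and −0.17 against cluster 3. IFIT2 had 13.8 CPM in cluster 1, 102 CPM in cluster 0, 5.27 CPM in cluster 2 and 17.8 CPM in cluster 3, so cluster 1 was not the lowest. RSAD2 had 1.38 CPM in cluster 1 and 11.5 CPM in the other cells. The 13 MHC class I genes showed no member past 1.5-fold, with a median of −0.23 and HLA-B, at 401 CPM in cluster 1 and 538 CPM in the other cells, among the lowest.

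Of 17 TGF-beta response genes 8 were at least 1.5-fold lower and none higher, with a median log2 ratio of −0.58. After INHBA these were PMEPA1, ID1, SMAD3, TGFBI, SMAD7, TGFBR2 and TGFB1, at ratios of 0.489 to 0.650. TGFB1, the ligand, had 36.8 CPM in cluster 1 and 50.1 to 72.2 CPM elsewhere, while its receptor gene TGFBR1 had 50.6 CPM and 42.4 to 54.7 CPM. ID2, known to oppose E-box factors, was at 18.7 CPM in cluster 1 against 12.9 CPM in cluster 0. The authors' UCell scores, rank-based scores per cell with no unit, lay the same way. The EMT score averaged 0.136 ± 0.00980 (SD over 628 cells, not replicates) in cluster 1, 0.158 in cluster 0, 0.163 in cluster 2 and 0.148 in cluster 3. The TGF-beta score averaged 0.0974 ± 0.0183 in cluster 1 and 0.116, 0.121 and 0.109 in the others.

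ERK pathway output leaned lower, with a median log2 ratio of −0.33, and 12 of 17 genes were not past 1.5-fold. Of the others 4 were lower and MYC was higher (94.8 CPM in cluster 1 and 59.6 CPM in the other cells). CCND1, cyclin D1, had 107 CPM in cluster 1, 211 CPM in cluster 0 and 302 CPM in cluster 2. DUSP6, a feedback phosphatase, had 110 CPM in cluster 1 and 134 CPM in cluster 0. Among hypoxia and glycolysis genes 4 of 21 were at least 1.5-fold lower, NDRG1, VEGFA, DDIT4 and SLC2A1, and the glycolytic enzymes such as PGK1 (448 CPM in cluster 1, 432 CPM in cluster 0) were not. Sterol synthesis genes had a median log2 ratio of 0.26 with no gene past 1.5-fold in either direction. Nuclear genes of the respiratory chain had a median of 0.18, also with none of 25 past 1.5-fold. Dissociation and heat shock genes had a median of −0.05, with 4 of 15 past 1.5-fold lower and none higher, the early response genes ATF3, FOSB, IER2 and EGR1.

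Cell cycle did not set cluster 1 apart from cluster 0. By the authors' phase calls 204 cells of cluster 1 were in G1 (32.5%, 28.8 to 36.3%), 209 in S and 215 in G2M, against 35.6%, 32.0% and 32.3% in cluster 0. Cluster 2 had 52.7% of its cells in G1, and cluster 3 had 87.8% in G2M. Over 24 S phase and 24 G2M genes no gene was past 1.5-fold in either direction against the other cells together. The median log2 ratios were 0.00 and 0.01. They were −0.04 and −0.06 against cluster 0 alone, 0.24 and 0.55 against cluster 2, and 0.16 and 0.09 against cluster 3. Read within one phase at a time, all 162 higher genes stayed above 1 in G1, S and G2M, and 280, 281 and 281 of the 281 lower genes stayed below 1. The genes were called on the sum of these same cells, so their choice favours this direction. Past 1.5-fold in G1, S and G2M were 129, 133 and 149 of the higher and 260, 237 and 231 of the lower genes. The pigment list median was 1.08 in G1, 1.08 in S and 1.14 in G2M, and the primed list median was −1.54, −1.16 and −1.28. Within cluster 1, DCT had 650 CPM in G1, 444 CPM in S and 348 CPM in G2M cells and MLANA 90.2, 46.1 and 64.2 CPM, whereas PMEL had 1054, 840 and 1024 CPM. The MLANA ratio to the other cells was 21.2 in G1 and 7.81 in G2M, where the other cells included the 79 cells of cluster 3 called G2M.

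Cells of cluster 1 differed widely among themselves. Each cell was thinned to 30000 UMIs, which lost no cell, and the share of cells with at least 1 UMI was taken with exact Clopper-Pearson intervals. MLANA was then found in 39.3% of the cells of cluster 1 (35.5 to 43.3%), in 3.44% of cluster 0 (2.17 to 5.16%), in 6.59% of cluster 2 (2.46 to 13.8%) and in 51.1% of cluster 3 (40.3 to 61.8%). Unthinned, the shares were 48.9%, 7.34%, 13.2% and 83.3%. The order of clusters 1 and 3 in this share goes against their CPM and is not read as an order of expression. Free RNA in droplets can give a UMI in a cell that does not express a gene. No level of such a background was measured here. The share in cluster 0, called primed, cannot stand for one, since its cells may express the gene.

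PMEL was found in 99.8% of the cells of cluster 1 and DCT in 90.6%, and ABCB5, SPP1, TRIM63 and SLC45A2 in 51.4%, 49.7%, 47.8% and 56.2%. In cluster 0 PMEL was still found in 92.8% of the cells and DCT in 36.9%. MITF was found in 99.0% of cluster 1 and 89.5% of cluster 0. NT5E had a UMI in 58.3%, AXL in 37.3% and NGFR in 16.7% of the cells of cluster 1, against 84.7%, 79.1% and 63.4% of cluster 0. No cells of this library are known to lack these genes, so how much of the shares in cluster 1 was free RNA was not tested.

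**Figure D3:**
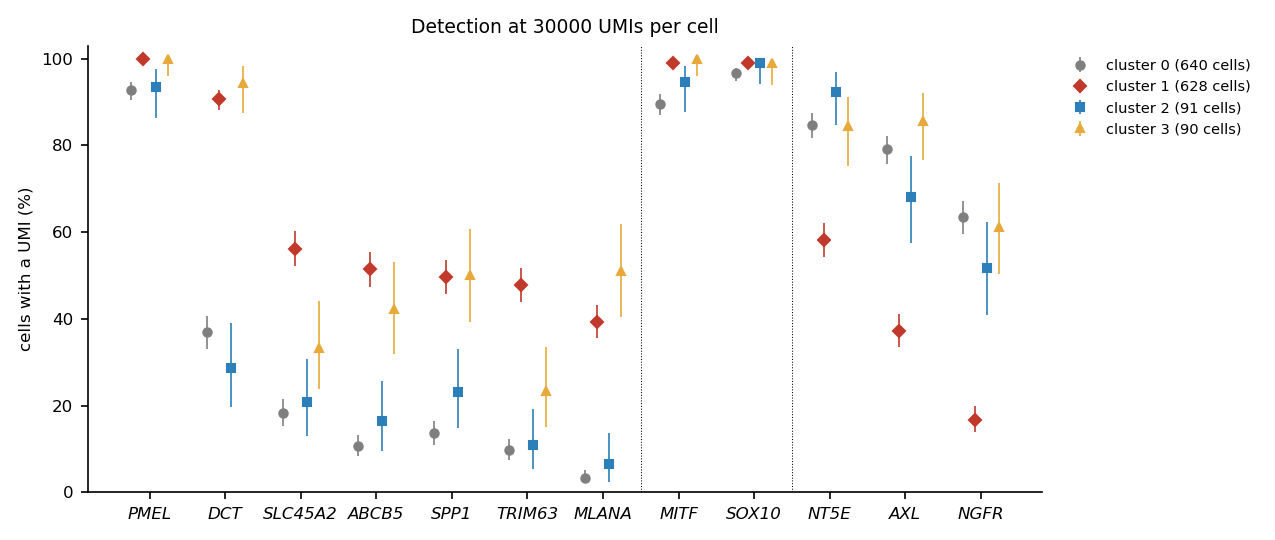
Percent of cells with at least 1 UMI after thinning to 30000 UMIs per cell, with exact 95% Clopper-Pearson intervals, for the 7 melanocytic markers (left), MITF and SOX10 (middle) and the primed markers NT5E, AXL and NGFR (right) in clusters 0 to 3. PMEL and SOX10 are found in nearly all cells of every cluster, and cluster 3 is near cluster 1 for DCT (94.4 and 90.6%) and near cluster 0 for NGFR (61.1 and 63.4%).

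A typical cell of cluster 1 had 4 of the 7 markers (median), a typical cell of clusters 0 and 2 had 2. All 7 were found in 62 cells of cluster 1 (9.87%), in 3 cells of cluster 0 and in none of clusters 2 and 3. At the low end, 79 cells of cluster 1 (12.6%, 10.1 to 15.4%) had at most 2 markers, as had 76.7% of cluster 0. All of NT5E, AXL and NGFR were found in 5.25% of cluster 1 (3.64 to 7.30%) and none of them in 23.4%, whereas in cluster 0 the same shares were 45.6% and 2.66%. Cluster 2 had 34.1% and 2.20%, and cluster 3, also classed as not primed, had 47.8% and 2.22%.

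**Figure D4:**
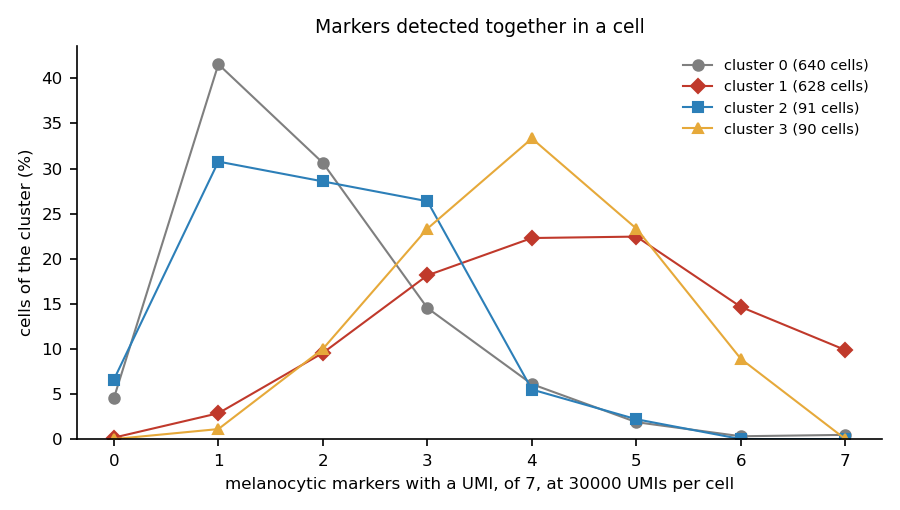
Percent of the cells of each cluster by how many of the 7 melanocytic markers had a UMI at 30000 UMIs per cell. Cluster 1 (red) spreads from 0 to 7 markers, with 1 cell at 0 and a median of 4, cluster 3 (yellow) has the same median with 33.3% of its cells at 4 markers, and clusters 0 and 2 peak at 1 marker.

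The summed UMIs of the 7 markers at 30000 UMIs per cell ran from 9 (5th percentile) over a median of 40 to 125 (95th percentile) in cluster 1, against 1, 5 and 32 in cluster 0. By the share of UMIs in few cells MLANA was the most uneven of the 7 markers. The 63 cells with the most MLANA UMIs, 10% of cluster 1, held 71.0% of its MLANA UMIs, and 1 cell had 52, while 60.7% of the cells had none. The 63 highest cells held 38% for DCT, for PMEL 28.4%, for MITF 21.5% and for SOX10 20.7%. For the markers with mean counts nearer that of MLANA they held 44.9% (ABCB5), 47.6% (TRIM63), 47.9% (SPP1) and 37.2% (SLC45A2). The variance over the mean of UMIs per cell, which is 1 for pure counting noise, was 13.0 for MLANA, 22.3 for DCT, 19.2 for PMEL, 3.83 for MITF and 1.82 for SOX10. It was lower for the less abundant markers, from 1.75 for SLC45A2 to 3.75 for ABCB5, and at equal dispersion it grows with the mean, so it does not rank genes of different levels.

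Markers tended weakly to occur in the same cells. Over the 628 cells all 21 pairs of the 7 markers had a positive Spearman rho at equal depth, between 0.165 and 0.494 (median 0.253), with MLANA and PMEL the highest. All these pairs were positive in cluster 0 as well, from 0.0786 for MLANA and DCT to 0.304 for DCT and PMEL. These values are a description, since the cells share 1 library and the markers were chosen together. MLANA had rho 0.168 with MITF and −0.272 with SERPINE2, both weak at these counts, as were most of the marker pairs. In cluster 0 MLANA had rho 0.0111 with MITF and 0.0825 with SERPINE2.

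Among the genes past 1.5-fold in the main comparison, cluster 3, which the labels also class as not primed, mostly lay between clusters 0 and 1. For 136 of the 162 genes higher in cluster 1 and 248 of the 281 lower ones its CPM was between those of clusters 0 and 1, at a median of 0.348 and 0.418 of the way from cluster 0 to cluster 1 on a log scale. Cluster 2 lay between them for 117 of the higher and 136 of the lower genes, at a median of 0.318 and 0.0846 of the way. These genes were called against a pool in which 640 of 821 cells are of cluster 0. That choice favours clusters 0 and 1 lying at the ends, and the share over all genes is not given here. The cells of cluster 3 were more alike. At equal depth the variance over the mean was 2.28 for the sum of the 7 markers in cluster 3, against 28.6 in cluster 1 and 16.2 in cluster 0, and for CCL2 it was 2.68 against 9.83 and 65.2. CCL2 was found in 100% of the cells of cluster 3, 90.3% of cluster 0 and 51.1% of cluster 1, and CCL5 in 56.7%, 15.6% and 3.18%. These shares include any free RNA, whose part in them was not tested. Cluster 3 had the highest median UMIs of the 4 clusters, and whether its droplets held more than 1 cell was not tested. With cluster 3 left out, 174 genes were higher and 301 lower in cluster 1 than in clusters 0 and 2.

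Clustering the cells anew divided cluster 1. Without removal of the cell cycle, SCTransform and Louvain clustering gave 5 clusters, of which 2 held no G1 cell, and the cluster closest to cluster 1 held 291 (46.3%) of its cells among 324. With the deposited S and G2M scores removed, 612 cells of cluster 1 (97.5%) fell into 2 of 4 new clusters. These new clusters held 455 and 268 cells in all, of which 358 and 254 were of cluster 1. The lowest ratios between these groups of 358 and 254 cells were those of mitochondrial transcripts. Their median mitochondrial share was 11.4% and 3.94%, and MT-ATP6, a subunit gene of the mitochondrial ATP synthase, had 13797.5 and 3690 CPM. Of 6738 genes at 20 CPM or more, 14 were at least 1.5-fold higher and 18 lower in the group with the low share, and the 12 lowest ratios were all of mitochondrial genes. NGFR, under this 20 CPM floor in both groups and so not among the 14, had 13.9 CPM in the group with the low share and 5.66 CPM in the other, a ratio of 2.45. The pigment genes were close in both, with PMEL at 901 and 1088 CPM, MLANA at 62.6 and 71.9 CPM and DCT at 510 and 432 CPM, and the stress genes NUPR1 and HMOX1 were higher in the group with the low share, at 27.7 against 13.7 CPM and 33.3 against 21.3 CPM.

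WM989, a second melanoma cell line whose cells were partly sorted for EGFR and NGFR before growth, gives a related contrast in another background, between 9688 drug-susceptible and 2843 primed cells. The contrasts are not the same, since the WM983B cells set against cluster 1 include the 90 cells of cluster 3, which are not primed. The WM989 table is 1 sample whose cultures were split over chip wells, and its runs r1 and r2 are read here as loadings of the same cultures, not as replicates. Its table was made with another gene annotation (33538 genes against 36601 here), so genes were matched by symbol and 158 of the 162 higher genes were found. Of the 146 with at least 5 CPM in either WM989 state, 129 (88.4%) were higher in drug-susceptible than primed WM989 cells, 127 of them in r1 and r2 alike, against 51.8% of the 6580 genes tested here. Of the 238 lower genes, 205 (86.1%) were also lower in drug-susceptible WM989 cells, 199 in r1 and r2 alike, against 48.2%. Across these 6580 genes, which are not independent replicates, the log2 ratios of the lines had Pearson's r 0.637 and Spearman's rho 0.592.

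For PMEL, SOX10 and MITF the lines differed in how far the states lay apart. For MLANA the log2 ratio was 4.83 in WM989. In WM983B it was 3.57 against the other cells and 4.85 against cluster 0 alone. In WM989 MLANA had 1683 CPM in drug-susceptible and 59.0 CPM in primed cells, PMEL 2158 and 66.8 CPM, and SOX10 130 and 7.09 CPM. In WM983B MLANA stayed at 65.2 CPM in cluster 1, close to the level of primed WM989 cells. MITF had 313 and 45.7 CPM in WM989, a ratio of 6.86, against 420 CPM in cluster 1 and 200 CPM in the other WM983B cells. The tables were not normalized together, so levels across the lines are only set side by side. CCL2 had 0.727 CPM in drug-susceptible WM989 cells and 44.3 CPM in cluster 1, and AXL 0.469 and 19.5 CPM, whereas VGF had 748 and 18.3 CPM.

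**Figure D5:**
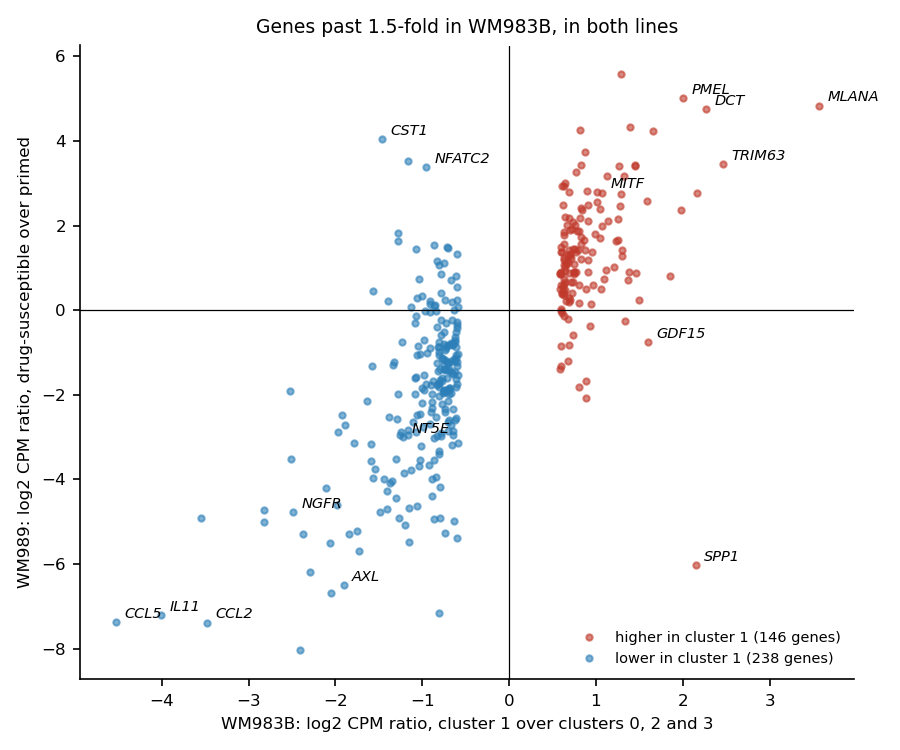
log2 CPM ratio of drug-susceptible to primed WM989 cells against that of cluster 1 to the other WM983B cells, for the 146 higher (red) and 238 lower (blue) genes of cluster 1 with at least 5 CPM in WM989. Most genes lie at the lower left and upper right, and SPP1 is the farthest point at the lower right.

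SPP1, one of the 7 markers, was reversed. It had 47.0 CPM in cluster 1 and 10.6 CPM in the other WM983B cells, but 7.27 CPM in drug-susceptible and 474 CPM in primed WM989 cells, with a lower level in drug-susceptible cells in both loadings (101-fold in r1 and 41.0-fold in r2). In all, 14 of the 146 higher genes were lower in drug-susceptible cells of r1 and r2 alike, and 28 of the 238 lower genes were higher in both, which is 9.59% and 11.8%, against 40.9% and 49.2% of the 6580 genes. MBP, myelin basic protein, had 240 CPM in cluster 1 against 130 CPM, and 177 against 562 CPM in WM989. NFATC2, a transcription factor, had 16.7 CPM in cluster 1 against 32.4 CPM, and 36.1 against 3.46 CPM in WM989. VGF was under the 20 CPM floor in WM983B and so not among the 14. It had 18.3 CPM in cluster 1 against 11.8 CPM in the other cells, with 18.3 CPM in cluster 3 too. In drug-susceptible WM989 cells VGF was lower, with 748 CPM against 1371 CPM.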

How the data were processed

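The deposited table holds whole-number UMI counts that the authors obtained by running Cell Ranger (version not given in the sources used here) against hg38, before filtering cells in Seurat by genes and mitochondrial percent. Deposited with them were cluster, state and phase of each cell, the percent of mitochondrial counts, and UCell scores (EMT and TGF-beta, each a score computed by the authors). These labels were used as they stand. Counts were summed per cluster and scaled to CPM in Python 3.11.15 with numpy 2.4.6 and scipy 1.17.1. Genes needed 20 CPM in one group, and list members 5 CPM. The ratio step was tested on simulated sums with known 2-fold changes and counting error only. These lack the spread between cells seen here, so the check does not bear on that spread. Shares of cells used cells thinned to 30000 UMIs. A count of 0 was given a limit of 3 counts. Cells were clustered anew in R 4.3.3 with Seurat 5.3.0, sctransform 0.4.2, 30 components and resolution 0.5. Genes named are the 7 markers, the 15 highest and 15 lowest ratios of one direction against each cluster, the 5 highest and lowest against each cluster, up to 3 at each end of each gene list and those at 0 in cluster 1, and NT5E, AXL, NGFR, EGFR, MITF and SOX10. Other list members and the genes of the WM989 and subgroup comparisons were chosen after their values were seen. The cells, markers and lists were chosen with earlier results of these data known. The WM989 counts were handled in the same way. The treated WM989 and ATAC-seq files were not used here. No paired fit and no test was made, since WM983B has 1 library. Gene positions and promoters come from RefSeq on GRCh38.p14. Alternatives were other clusters, scalings, floors, folds, depths and cell subsets.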

Additional observations from a re-analysis of the deposited data

How the results depend on the processing

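No paired analysis was possible because the WM983B library has no replicate and no result comes from a test. The counts of 162 higher and 281 lower genes are counts past a fold and move with the cut: 301 and 549 at 5 CPM, 83 and 137 at 50 CPM, 373 and 743 with no minimum and 1 CPM added, and 48 and 108 at 2-fold. Against cluster 2 alone they were 279 and 474, and against cluster 3 alone 247 and 135. In the new clustering without removal of the cell cycle 482 genes were lower, and 80 of the 162 higher and 146 of the 281 lower genes were shared. With cell cycle scores removed, an alternative chosen after seeing the data, 152 and 263 were shared. The pigment list median (1.11) was 1.23, 0.78 and 0.89 against clusters 0, 2 and 3 alone and 0.87 in the new clustering. The primed list median (−1.34) was −1.54 in G1 cells, −0.87 against cluster 3, −1.05 in the new clustering and −1.20 with 1 CPM added. The interferon median (−0.52) was −0.72 in G1 cells and −0.62, −0.24 and −0.17 against clusters 0, 2 and 3. The share of cluster 1 cells with MLANA was 33.1% at 20000 UMIs and 48.9% unthinned. The cause of these moves was not tested, apart from fewer genes, cells or UMIs where the alternative itself sets them. In the new clustering without removal of the cell cycle, the chosen cluster held 291 cells of cluster 1 among 324. Of these 324 cells 209 were in G1, and the rest of cluster 1 lay in the other new clusters. More genes were lower than higher in cluster 1 in the main comparison, and fewer were against cluster 3 alone. None of these 3 list medians changed sign under the alternatives above, nor under mean CPM per cell, median ratio scaling, without the 5% of cells with the most UMIs or without cluster 3 (chosen after seeing the data). Of 180 log2 ratios of the 30 genes with the highest and lowest ratios, 127 moved beyond their counting error and 53 did not. Their sign against each single cluster was fixed by their choice. It held in G1 cells, in the new clustering and without the cells with the most UMIs. IL11 (−4.00) was −1.89 in G1 cells and −4.82 without the cells with the most UMIs, and MLANA (3.57) was 4.41 in G1 cells and 2.17 in the new clustering. The ratio moved by over 1.5-fold for 19 of the 30 genes in the new clustering, which held 46.3% of cluster 1, for 3 in G1 cells and for 1 without the cells with the most UMIs. It moved as far for 19 against cluster 2 alone, for 18 against cluster 3 alone and for 1 against cluster 0 alone. Clusters 2 and 3 hold 91 and 90 cells, so their shares are the least precise.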
